A study of Mus musculus with 21 samples.

Results

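The SLITRK family has 6 members in the mouse, *Slitrk1* to *Slitrk6*, and they were chosen by symbol from the 52550 genes of the count table. All 6 were found and all 6 passed the filter on low counts of both fits. SLITRK proteins are single-pass membrane proteins of neurons, with leucine-rich repeats outside the cell, and are named after Slit, whose repeats theirs resemble, and Trk, the neurotrophin receptors. Several of them act as postsynaptic adhesion molecules that bind LAR-type receptor phosphatases (PTPRD, PTPRF and PTPRS) on the facing axon and induce the formation of presynaptic terminals there. In the inner ear, *Slitrk6* is the member best known, since its loss reduces the innervation of the sensory epithelia in mice and causes hearing loss in humans.

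Bulk RNA-Seq libraries were made from 7 groups of C57BL/6 mouse cells with 3 replicates per group, 21 libraries in all. Spiral ganglion neurons (SGNs), which carry sound signals from hair cells to the brainstem, came from cochleae collected at 5 ages (E15.5, then P1 and P8, P14, and P30), and were marked by *ShhCre/+* together with 1 copy of the Ai9 reporter, *Rosa26-CAG-loxp-stop-loxp-tdTomato*. Hair cells (HCs) at P12 came from the cochlear and vestibular organs of mice with *Atoh1-CreER+* and the tdTomato reporter, with tamoxifen at P0 and P1. Glia at P8 came from mice with *vGlut3-iCreER/+* and the reporter, with tamoxifen at P2 and P3. Every group thus carried the reporter with a Cre driver of its own, and *vGlut3-iCreER* also labels inner hair cells, which were left behind at dissection. The labels list 69 to 195 picked cells for SGN libraries, 86 to 125 for glia and 1200 for each HC library, while the study's methods describe sorting of the HCs by fluorescence. HCs and glia were each sampled at 1 age, so cell type cannot be told apart from age, driver line or tamoxifen, except that SGNs and glia were both taken at P8. For HCs it also cannot be told apart from organ, number of cells or, per the study's methods, sorting. Nothing states that replicates came from separate animals, so p-values measure the spread between these libraries, which may be technical.

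Libraries held 10368240 to 37287489 counts on genes (median 20384100), and 3 counts equaled 0.0805 to 0.289 CPM (counts per 1000000), a limit that covers counting error only. Counts between 1 and 20 were even in a median of 67.9% of cases, so a count of 2 can stand for 1 fragment. Each group was highest for its own markers. The 4 SGN markers (*Slc17a6*, *Slc17a7*, *Tubb3* and *Nefl*) summed to 530.3 to 4614 TPM (transcripts per 1000000, which accounts for gene length) in SGNs, 163 to 185 in HCs, where 1 library had no count of *Tubb3*, and 18.0 to 181 in glia. The 5 hair cell markers (*Myo6*, *Myo7a*, *Pou4f3*, *Gfi1* and *Otof*) summed to 2387 to 2810 TPM in HCs, 12.6 to 190 in SGNs and 45.3 to 57.2 in glia. The glial markers *Sox10* and *Foxd3* summed to 189 to 341 TPM in glia, 0.181 to 26.2 in SGNs and 30.1 to 34.8 in HCs. All 5 cochlear supporting cell markers (*Gjb2*, *Gjb6*, *Epyc*, *Fbxo2* and *Lfng*) were also detected in every HC library, with a sum of 2185 to 2366 TPM, of which *Fbxo2* made up 2064 to 2226, against 27.4 to 343 in SGNs and 75.5 to 161 in glia. The 4 connective tissue markers (*Col1a1*, *Col1a2*, *Col3a1* and *Dcn*) summed to 243.6 to 408 TPM in glia, 81.2 to 87.5 in HCs and 0.0752 to 103 in SGNs, and the 3 hemoglobin genes to 137 TPM in 1 E15.5 library and at most 29.6 in the others.

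The members lie on 3 chromosomes of mm10, and the annotation shows no other gene overlapping any of them. On chromosome 14, *Slitrk1* (ENSMUSG00000075478, chr14:108908800-108914158, minus strand), *Slitrk6* (ENSMUSG00000045871, chr14:110748580-110755149, minus strand) and *Slitrk5* (ENSMUSG00000033214, chr14:111675097-111683141, plus strand) follow each other in this order. No protein-coding gene is annotated in the 1.83 Mb between *Slitrk1* and *Slitrk6* or in the 0.92 Mb between *Slitrk6* and *Slitrk5*. *Slitrk4* (ENSMUSG00000046699, chrX:64264885-64276996, minus strand) and *Slitrk2* (ENSMUSG00000036790, chrX:66649318-66661393, plus strand) lie 2.37 Mb apart on the X chromosome. *Slitrk3* (ENSMUSG00000048304, chr3:73047265-73057803, minus strand) is alone on chromosome 3. In all 6, the coding sequence lies within 1 exon, with a length of 2088 bases in *Slitrk1* to 2940 in *Slitrk3*.

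Related genes can share reads, so the coding sequences were compared. Over the 15 pairs of members, aligned coding bases were identical at 59.3% to 64.5% of positions, and the longest stretch shared without a mismatch was 11 to 21 bases. The longest of all was shared by *Slitrk4* and *Slitrk6*, and the next by *Slitrk1* and *Slitrk4*. They are shown, 5′ to 3′ and in lower case throughout, because they set the length of read that could not be assigned to 1 coding sequence.
Slitrk4 and Slitrk6: gctttatctcaatggcaatca
Slitrk1 and Slitrk4: aacccttgggactgcacctg

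*Slitrk1* and *Slitrk6*, neighbors on chromosome 14, had opposite patterns in these libraries (below 1 CPM in HCs for the first, highest in HCs for the second), and the 250 bases before their RefSeq starts are therefore printed, from RefSeq on GRCm38.p6, 5′ to 3′ on the gene's strand. RefSeq windows were at hand for 5 of the 6 members, with none for *Slitrk4*. Capitals mark each match to CANNTG, the E-box bound by basic helix-loop-helix factors, a family that includes the proneural factors of the inner ear. The pattern CANNTG reads the same on both strands, so a match on 1 strand is a match on the other.
Slitrk1 (chr14:108914240-108914489, minus strand): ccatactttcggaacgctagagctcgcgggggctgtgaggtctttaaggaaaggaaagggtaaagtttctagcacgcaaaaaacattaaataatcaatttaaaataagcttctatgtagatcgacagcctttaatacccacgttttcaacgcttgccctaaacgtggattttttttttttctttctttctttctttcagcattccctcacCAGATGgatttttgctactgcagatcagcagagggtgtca
Slitrk6 (chr14:110755150-110755399, minus strand): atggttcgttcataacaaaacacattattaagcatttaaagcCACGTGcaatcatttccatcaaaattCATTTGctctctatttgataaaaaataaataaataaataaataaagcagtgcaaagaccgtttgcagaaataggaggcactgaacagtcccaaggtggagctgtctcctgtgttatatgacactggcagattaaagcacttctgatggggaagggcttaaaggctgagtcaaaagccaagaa

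The *Slitrk1* window holds 1 such match, CAGATG, and the *Slitrk6* window holds 2, CACGTG and CATTTG. Of 32851 mouse windows of the same length, 66.2% hold at least 1 CANNTG, and 14.4% hold CAGATG on either strand, which is itself one of the CANNTG forms. Their GC contents are 40.4% and 37.2%, against a median of 52.4% over all windows. A match of letters is a description of the sequence only.

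Levels are given as normalized CPM, the CPM of a library after scaling of its total with TMM factors. Across the 7 groups, *Slitrk1* and *Slitrk3* had the highest levels of the family per length (TPM) in SGNs at every age, *Slitrk6* in HCs, and *Slitrk5* with *Slitrk2* in glia. *Slitrk4* was low in E15.5 SGNs and higher at each later age.

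**Figure D1:**
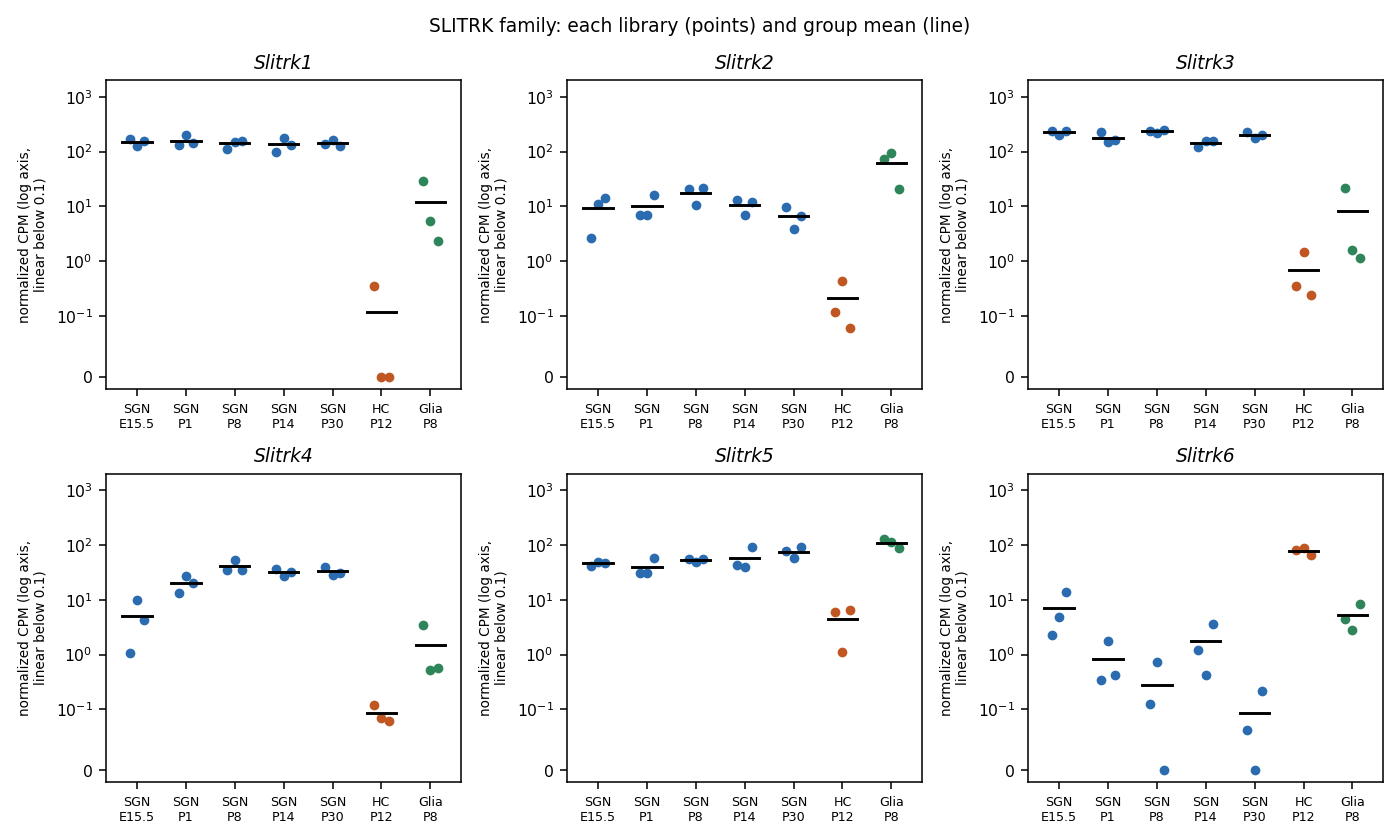
Normalized CPM of the 6 SLITRK genes (1 panel each, log axis that is linear below 0.1) in the 21 libraries, with SGNs in blue, HCs in orange and glia in green. Points are libraries and black lines are group means (n = 3). *Slitrk1* lay between 97.4 and 198 in all 15 SGN libraries and at or below 0.35 in HCs, and *Slitrk6* lay between 66.9 and 87.4 in HCs and at or below 14.1 in every other library.

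*Slitrk1*, which promotes neurite outgrowth and excitatory synapse formation in culture, was steady over SGN development. Its values in replicates 1, 2 and 3 were 172, 127 and 158 normalized CPM at E15.5, 133, 198 and 145 at P1, 112, 152 and 158 at P8, 97.4, 179 and 133 at P14, and 137, 164 and 125 at P30. All 5 ages overlapped, and the highest age mean was 1.16 times the lowest. In HCs, its counts were 6, 0 and 0, and in glia 558, 62 and 24, which correspond to 28.8, 5.40 and 2.32 normalized CPM. Every SGN library thus stood above every glial library, and every glial library above every HC library.

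*Slitrk3*, which drives the formation of inhibitory synapses through the phosphatase PTPRD, was also high at all ages. Replicates 1, 2 and 3 gave 235, 197 and 239.8 normalized CPM at E15.5, 229.6, 149.6 and 159.6 at P1, 240.3, 216 and 245 at P8, 119.6, 157 and 157 at P14, and 228, 176 and 201 at P30. The P14 libraries lay below every P8 and every P30 library, and the other neighboring ages overlapped. HC libraries held 0.35, 1.46 and 0.24, and glial libraries 21.8, 1.57 and 1.16. These last 2 groups overlapped each other and lay below every SGN library.

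*Slitrk4* was the member that rose with age. Its values were 1.07, 10.1 and 4.26 normalized CPM at E15.5, 13.4, 26.6 and 20.2 at P1, 35.1, 52.5 and 35.1 at P8, 35.7, 27.5 and 32.5 at P14, and 39.6, 28.7 and 30.9 at P30. No E15.5 library reached the lowest P1 library, and no P1 library reached the lowest P8 library, while P8, P14 and P30 overlapped. It was at 2 counts in each of the 3 HC libraries, and at 67, 6 and 6 counts in glia (3.46, 0.52 and 0.58 normalized CPM).

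*Slitrk5*, a partner of the BDNF receptor TrkB whose loss causes compulsive grooming in mice, was present in all 3 cell types. SGN values were 42.1, 49.7 and 45.9 normalized CPM at E15.5, 30.4, 31.2 and 58.3 at P1, 55.5, 48.3 and 54.6 at P8, 42.3, 39.4 and 92.4 at P14, and 76.3, 57.3 and 90.2 at P30. P30 was the highest SGN age by mean (74.6 ± 16.5, SD, n = 3), and its range overlapped that of P14. Glia held 127, 116 and 86.3, and HCs held 6.03, 1.11 and 6.42. The 3 HC libraries were the lowest of all 21.

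*Slitrk2*, a member that promotes excitatory synapses in culture, was highest in glia, with 73.7, 92.4 and 21.1 normalized CPM. SGN values were 2.67, 11.0 and 14.2 at E15.5, 6.89, 6.88 and 16.1 at P1, 20.9, 10.7 and 21.6 at P8, 13.2, 7.03 and 12.1 at P14, and 9.82, 3.83 and 6.55 at P30. The ranges of all SGN ages overlapped with their neighbors in order of mean, and the lowest glial library (21.1) fell just under the highest P8 SGN library (21.6). HCs held 2, 10 and 2 counts. The SGN age with the highest mean, P8 (17.7 ± 6.06), was also the age with the highest median of glial marker RNA (15.2 TPM), with a range of 10.8 to 26.2 TPM against 0.181 to 19.7 at the other ages. The part of this RNA in the level was not tested.

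*Slitrk6* was the 1 member with higher levels in HCs than in SGNs. HC libraries held 1394, 2039 and 1667 counts, or 82.4, 87.4 and 66.9 normalized CPM, above every other library of the study. Among SGNs it was highest at E15.5, with 2.27, 4.86 and 14.1 normalized CPM, and lower at P1 (0.34, 1.74 and 0.42), P8 (0.12, 0.73 and 0), P14 (1.20, 0.43 and 3.69) and P30 (0.066, 0 and 0.21). The E15.5 libraries lay above every P1, P8 and P30 library and overlapped those of P14. The library with the highest SGN value, E15.5 replicate 3, also held the most supporting cell marker RNA (63.3 TPM) and glial marker RNA (19.7 TPM) of its age, against 36.0 and 2.13 TPM in replicate 1 and 27.4 and 4.19 TPM in replicate 2. The part of this RNA in the level was not tested. Hair cell markers summed to 25.4 TPM there, between the 29.9 and 12.6 TPM of replicates 1 and 2. Over all SGN libraries the median of *Fbxo2* was 127.6 TPM, against 128.1 TPM for the sum of supporting cell markers. TPM also moves with library composition, and *Slitrk1* stood at 62.5, 27.0 and 67.0 TPM in E15.5 replicates 1, 2 and 3. Glia held 4.54, 2.79 and 8.31 normalized CPM.

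CPM values do not compare genes of different length, so the members were set against each other by TPM within each library. In SGNs, *Slitrk1* and *Slitrk3* together made up 71.6% to 90.1% of the summed TPM of the 6 genes (median 82.7%, n = 15). The ratio of *Slitrk3* to *Slitrk1* ran from 0.663 to 1.88, and neither led in every library. *Slitrk5* was next with 7.24% to 21.6%, and *Slitrk4* grew from 0.124% to 1.37% at E15.5 to 3.79% to 6.12% at P8. In HCs, *Slitrk6* alone made up 93.1%, 97.2% and 91.8%, and in glia *Slitrk5* and *Slitrk2* together made up 73.6%, 93.9% and 88.0%. The summed TPM of the family was 69.9 to 219.5 in SGNs, 64.6 to 77.3 in HCs and 25.7 to 57.6 in glia. Of the 3 HC libraries, 1 lay just under the lowest SGN library and 2 lay within the SGN range. TPM moves with library composition, so this does not show equal totals in the 2 cell types. The lowest SGN library, P14 replicate 2, held 179 normalized CPM of *Slitrk1* alone. HCs held 82.4, 87.4 and 66.9 of *Slitrk6*, a gene of nearly the same counted length (4242 bases against 4249).

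**Figure D2:**
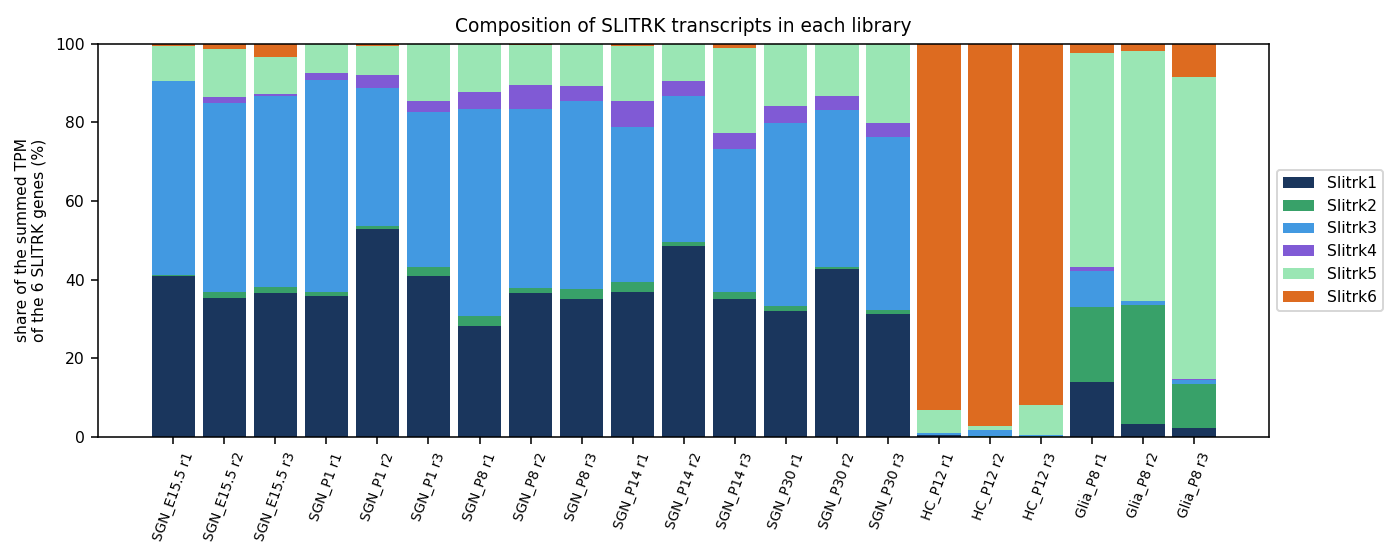
Share (%) of each SLITRK gene in the summed TPM of the 6 genes, with 1 bar per library. *Slitrk1* and *Slitrk3* (dark and mid blue) fill 71.6% to 90.1% of the 15 SGN bars, *Slitrk6* (orange) fills 91.8% to 97.2% of the 3 HC bars, and *Slitrk5* and *Slitrk2* (greens) fill 73.6% to 93.9% of the 3 glial bars.

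Which members change as SGNs mature was tested with limma-voom on the 15 SGN libraries, two-sided, with Benjamini-Hochberg (BH) adjustment over all 15113 genes of the fit. A change was called when the adjusted p was under 0.05 and the fold over 2. In bulk samples, fewer cells of a type and less RNA per cell cannot be told apart. Neighboring transitions share the libraries of the age between them.

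*Slitrk4* was the member called between E15.5 and P1 (1 of 6, where 8.26% of all genes were called), and again between P1 and P8 (1 of 6, where 7.44% of all genes were called). It rose 4.74-fold from E15.5 to P1 (log2 2.24 ± 0.63, SE, limma-voom adjusted p = 0.032) and 2.16-fold from P1 to P8 (log2 1.11 ± 0.32, adjusted p = 0.036). Over the whole span from E15.5 to P30 the rise was 8.31-fold (log2 3.06 ± 0.62, adjusted p = 0.001). The whole-span rise kept its call without any 1 library, at log2 2.32 to 3.81. The 2 single steps did not. The first lost its call without E15.5 replicate 1 (log2 1.51, adjusted p = 0.091), E15.5 replicate 3 (2.30, 0.088), P1 replicate 2 (2.01, 0.081) or P1 replicate 3 (2.20, 0.057), and stood at 3.00 without E15.5 replicate 2. The second lost its call without P1 replicate 1 (log2 0.79, adjusted p = 0.22), P1 replicate 3 (1.16, 0.075), P8 replicate 2 (0.90, 0.15) or P8 replicate 3 (1.20, 0.056), and also with edgeR's quasi-likelihood test (1.02, adjusted p = 0.28) and with DESeq2 (1.01, adjusted p = 0.20).

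*Slitrk6* fell from E15.5 to P30 (log2 -6.16 ± 1.55, adjusted p = 0.0048), so 2 of 6 members were called over the whole span, 1 in each direction, where 34.6% of all genes were called. *Slitrk6* passed the filter on low counts of this fit only through E15.5, its highest age, so the filter favored a fall. The size of the change from E15.5 to P30 is loosely held, since P30 libraries held 2, 0 and 4 counts. Their sum of 6 counts corresponds to 0.0725 CPM before scaling, with an exact 95% Poisson interval of 0.0266 to 0.158 that covers counting error only. The interval takes each count as 1 event, so it is too narrow where 2 counts stand for 1 fragment. Without 1 library the value ran from log2 -5.44, without E15.5 replicate 3, to -6.95, without P30 replicate 3, and it was -5.46 without P30 replicate 2. The first step, from E15.5 to P1, was of log2 -3.19 ± 1.02 and missed the threshold (adjusted p = 0.054), and passed it without E15.5 replicate 1 (-3.72, adjusted p = 0.030).

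After P8, no member was called by limma-voom, edgeR or DESeq2. Between P8 and P14, where 0.536% of all genes were called, 2 of 6 members had an unadjusted p under 0.05. They were *Slitrk3* at log2 -0.70 ± 0.18 (adjusted p = 0.082) and *Slitrk6* at 3.21 ± 1.51 (adjusted p = 0.43). Between P14 and P30, where 0.0596% of all genes were called, the same 2 genes had an unadjusted p under 0.05, with *Slitrk3* at log2 0.46 ± 0.19 (adjusted p = 0.65) and *Slitrk6* at -3.95 ± 1.67 (adjusted p = 0.68). *Slitrk3* thus had its lowest mean at P14 (144.7 ± 21.7 normalized CPM) with every P14 library under every library of P8 and P30, and neither step passed the adjusted threshold.

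For *Slitrk1*, the interval of the change gives its size under TMM scaling and the spread between these libraries. From E15.5 to P30 its log2 change was -0.12 with a 95% interval from -0.61 to 0.37. For *Slitrk3* it was -0.17 with an interval from -0.55 to 0.21, so under this scaling a 2-fold change lay outside both intervals. Over other tests, scalings and filters the values reached log2 -0.595 for *Slitrk1* and -0.637 for *Slitrk3*, with intervals not given here. *Slitrk5* stood at log2 0.65 ± 0.30 (adjusted p = 0.098), with every P30 library above every E15.5 library. *Slitrk2* stood at -0.31 with a wide interval, from -1.74 to 1.11, which holds a 2-fold change in both directions.

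**Figure D3:**
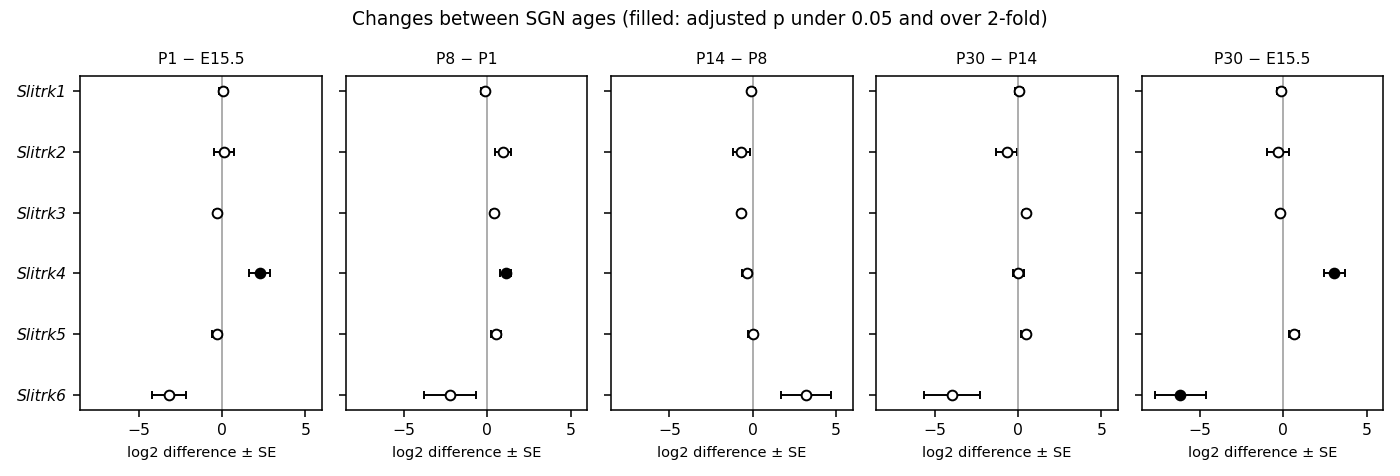
Log2 difference ± SE (limma-voom, 15 SGN libraries) of each SLITRK gene for the 4 steps between neighboring ages and for P30 against E15.5. Filled points passed an adjusted p of 0.05 and a 2-fold change, which were *Slitrk4* at the first 2 steps and over the whole span and *Slitrk6* over the whole span (-6.16).

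Which members separate SGNs from HCs and glia was tested in a limma-voom fit of all 21 libraries and 17531 genes, with a call at an adjusted p under 0.01 and a fold over 4. Against HCs, the mean of the 5 SGN ages differed for all 6 members, where 26.8% of all genes were called. *Slitrk1* (log2 11.4 ± 1.16, adjusted p = 4.9e-08), *Slitrk3* (8.51 ± 0.91, adjusted p = 9.3e-08), *Slitrk4* (7.42 ± 0.88, adjusted p = 3.9e-07), *Slitrk2* (5.68 ± 1.09, adjusted p = 0.00016) and *Slitrk5* (3.88 ± 0.61, adjusted p = 1.7e-05) were higher in SGNs. *Slitrk6* was higher in HCs (log2 -7.16 ± 0.44, adjusted p = 1.7e-11). *Slitrk4* passed the filter on low counts of this fit only through SGN groups, so the filter favored a higher level in SGNs. This holds against HCs and glia alike. No SGN library overlapped an HC library for any of the 6. The share of all genes without overlap was not computed, in this or any other comparison.

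With so few counts in HCs, the fitted sizes depend on the small count that voom adds. Summed over the 3 HC libraries, *Slitrk1* and *Slitrk4* each had 6 counts, or 0.127 CPM before scaling (exact 95% Poisson interval 0.0466 to 0.276), *Slitrk2* had 14 (0.296 CPM, 0.162 to 0.497) and *Slitrk3* had 46 (0.974 CPM, 0.713 to 1.30). These intervals too take each count as 1 event and are too narrow where 2 counts stand for 1 fragment. The same genes averaged 146, 26.2, 10.9 and 197 normalized CPM over the SGN libraries. Single HC libraries moved the sizes and no call. Without HC replicate 1 the difference for *Slitrk1* was log2 12.75, and without replicate 2 or 3 it was 10.7. Without HC replicate 2 it was 6.31 for *Slitrk2*, 9.26 for *Slitrk3* and 3.03 for *Slitrk5*. For *Slitrk6*, the value without any 1 library ran from -7.46 to -6.95. The HC libraries also held more supporting cell marker RNA than SGNs, most of it *Fbxo2*, as given above. The part of supporting cell RNA in the *Slitrk6* level was not tested.

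Against glia, 5 of 6 members differed from the mean of the SGN ages, where 24.7% of all genes were called, 3 higher and 2 lower in SGNs. *Slitrk3* (log2 5.54 ± 0.72, adjusted p = 2.2e-06), *Slitrk4* (4.13 ± 0.77, adjusted p = 0.00016) and *Slitrk1* (4.06 ± 0.66, adjusted p = 3.5e-05) were higher in SGNs. *Slitrk2* (-2.54 ± 0.39, adjusted p = 2e-05) and *Slitrk6* (-3.11 ± 0.76, adjusted p = 0.0019) were higher in glia. *Slitrk5* was at log2 -1.12 ± 0.24 (adjusted p = 0.0007), a 2.17-fold difference that was under the 4-fold limit. Libraries of the 2 cell types did not overlap for *Slitrk1* and *Slitrk3*, and overlapped for the other 4. The median over all genes in this comparison was log2 0.22.

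At the shared age of P8, which uses the same glial libraries, 4 of 6 members were called, where 20.9% of all genes were called. *Slitrk3* (log2 5.81 ± 0.73), *Slitrk4* (5.15 ± 0.79) and *Slitrk1* (4.02 ± 0.68) were higher in SGNs, with adjusted p of 3.1e-06, 2.9e-05 and 8.5e-05. *Slitrk6* was higher in glia (log2 -5.18 ± 1.17, adjusted p = 0.0013). *Slitrk2* (-1.74 ± 0.49, adjusted p = 0.0067) and *Slitrk5* (-1.07 ± 0.31, adjusted p = 0.0077) passed the p threshold and were under 4-fold. Only *Slitrk2* overlapped between the 2 groups.

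Glial replicate 1 was the highest glial library for *Slitrk1*, *Slitrk3* and *Slitrk4*, and it also held 181 TPM of SGN markers against 31.7 and 18.0 in replicates 2 and 3. The part of this RNA in the 3 genes' glial levels was not tested. Without that library, the counts of called members stayed at 5 for the SGN mean and 4 at P8. The 3 differences from the SGN mean were then larger, at log2 5.29 for *Slitrk1*, 7.11 for *Slitrk3* and 5.06 for *Slitrk4*, and at P8 they were 5.25, 7.38 and 6.08. Without glial replicate 3 they were smaller for *Slitrk1* (3.28, and 3.23 at P8) and *Slitrk3* (4.71, and 4.99 at P8), and without replicate 2 for *Slitrk3* (4.86, and 5.13 at P8). The *Slitrk6* calls were less firm. Against the SGN mean it lost its call without glial replicate 3 (-2.77, adjusted p = 0.017) and with sample quality weights (-3.17, adjusted p = 0.048), which also ended the call of *Slitrk4* (4.08, adjusted p = 0.023). At P8 the *Slitrk6* call was lost without P8 SGN replicate 3, which held 0 counts (-3.88, adjusted p = 0.016), and in a fit of the 2 groups alone (-5.12, adjusted p = 0.016), and the value was -6.46 without P8 replicate 2. *Slitrk2* at P8 passed the 4-fold limit without glial replicate 3 (-2.27, adjusted p = 0.00012).

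Between HCs and glia, 4 of 6 members were called, where 24.4% of all genes were called. *Slitrk6* was higher in HCs (log2 4.05 ± 0.69, adjusted p = 8e-05). *Slitrk2* (-8.21 ± 1.11, adjusted p = 6.3e-06), *Slitrk1* (-7.31 ± 1.33, adjusted p = 0.00017) and *Slitrk5* (32.0-fold, SE 0.64 on the log2 scale, adjusted p = 3.4e-06) were higher in glia. *Slitrk3* (-2.97 ± 1.15, adjusted p = 0.041) and *Slitrk4* (-3.29 ± 1.15, adjusted p = 0.024) did not pass. They were called by edgeR's quasi-likelihood test, at log2 -3.58 (adjusted p = 0.0018) and -3.99 (adjusted p = 0.0011), and *Slitrk4* by DESeq2 (-3.87, adjusted p = 6.2e-05). Without glial replicate 1, limma-voom gave -1.40 (adjusted p = 0.36) for *Slitrk3* and -2.36 (adjusted p = 0.16) for *Slitrk4*. The count of called members was 4 without that library too. The value for *Slitrk1* was then -6.09, and it ran to -8.68 without HC replicate 1 and to -8.11 without glial replicate 3. Without HC replicate 2 it was -6.64, and without HC replicate 3 it was -6.59. Leaving out HC replicate 2 also moved *Slitrk2* to -8.85 and *Slitrk5* to -4.14.

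**Figure D4:**
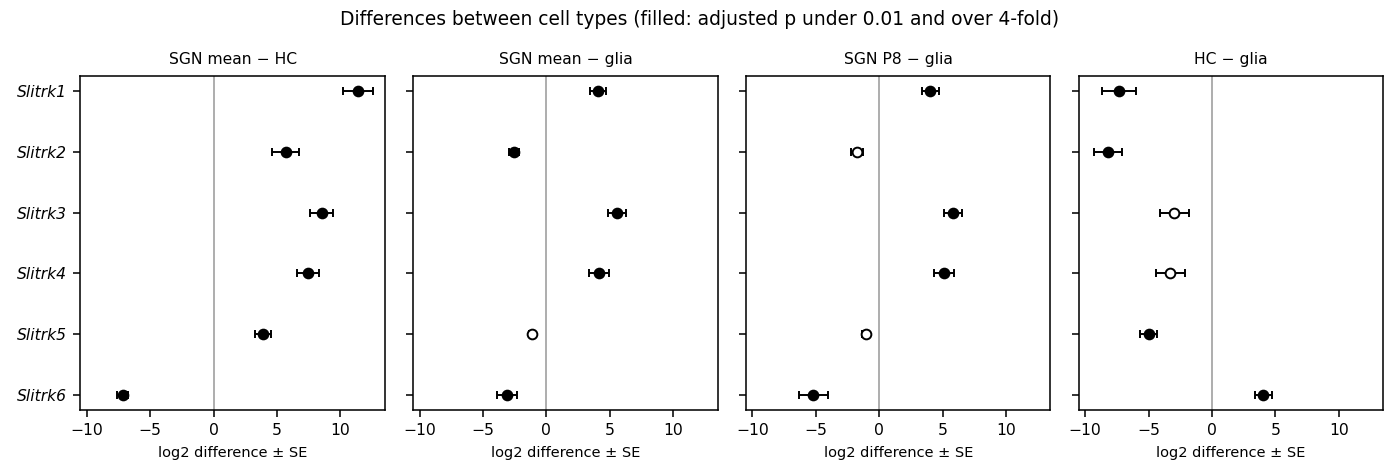
Log2 difference ± SE (limma-voom, 21 libraries) of each SLITRK gene in 4 comparisons of cell types. Values to the right are higher in the first group named, and filled points passed an adjusted p of 0.01 and a 4-fold change. *Slitrk6* is left of 0 in the first 3 panels (-7.16, -3.11 and -5.18) and right of 0 for HCs against glia (4.05), the reverse of *Slitrk1*.

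As a description of how the members varied together, log2(TPM + 1) was correlated over the 21 libraries, which fall into 7 groups and share library-wide composition. *Slitrk1* and *Slitrk3* had a Pearson r of 0.98, *Slitrk4* had 0.779 with *Slitrk1* and 0.775 with *Slitrk3*, and *Slitrk2* had 0.74 with *Slitrk5*. *Slitrk6* was negative with each other member, from -0.465 with *Slitrk2* to -0.755 with *Slitrk1*. Of all genes of the fit, those most like *Slitrk1* were *Jakmip2* (r = 0.992), *Elavl4* (0.990) and *Stmn2* (0.989), and those most like *Slitrk3* were *Elavl2* (0.988), *Jakmip2* (0.987) and *Nrg1* (0.987). *Elavl2* and *Elavl4* encode neuronal RNA-binding proteins and *Stmn2* a neuronal tubulin-binding protein. *Slitrk4* was nearest to *Gm14150* (0.977), *Kcnip1* (0.968), a subunit of A-type potassium channels, and *Car10* (0.967). *Slitrk6* was nearest to *Ttc25* (0.970), *Olfr315* (0.969) and *Maats1* (0.968). The best r was lower for *Slitrk2* (*Pcdh10*, a protocadherin, 0.898, then *Aatk*, 0.883, and *Shc4*, 0.880) and for *Slitrk5* (*Mras* 0.896, *Mdga2* 0.890 and *Tkt* 0.878).

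The presynaptic receptors that SLITRKs bind were measured in all 3 cell types. *Ptprs* was high in SGNs at every age (age means 354 to 453.5 normalized CPM) and in glia (447 ± 99.7), and low in HCs (45.5 ± 9.12). It was called higher in SGNs than in HCs (log2 3.10 ± 0.22, adjusted p = 1.9e-10) and lower in HCs than in glia (-3.30 ± 0.25, adjusted p = 3.5e-09). *Ptprf* fell over SGN ages, from 487 ± 160.2 normalized CPM at E15.5 to 310.1 ± 38.8, 205 ± 13.7, 209.9 ± 5.72 and 154.5 ± 9.02 at P1, P8, P14 and P30, a drop of log2 -1.62 ± 0.19 over the span (adjusted p = 6.8e-06). HCs held 105 ± 14.9 and glia 368 ± 24.1 normalized CPM of it. *Ptprd*, the receptor through which *Slitrk3* acts, had age means of 78.9 to 149 normalized CPM in SGNs, 34.1 ± 5.57 in HCs and 91.2 ± 76.0 in glia, where replicate 3 (179) stood above replicates 1 and 2 (52.6 and 42.3). It was called by limma-voom in none of the 9 comparisons, where 0.0596% to 34.6% of all genes were called. For SGNs against HCs it stood at log2 1.77 ± 0.37 (adjusted p = 0.00037), under 4-fold. Against glia, by the SGN mean or at P8, none of the 3 was called by limma-voom, edgeR or DESeq2, and 2 of 3 had an unadjusted p under 0.05 in each. Limma-voom called 24.7% and 20.9% of all genes there. The 3 receptors rank differently per length. In TPM, *Ptprf* (21.1 to 77.1 by age mean) and *Ptprs* (31.5 to 47.9) stood above *Ptprd* (6.16 to 10.4) in SGNs.

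Other transmembrane ligands of the same phosphatases were also measured. Of 9 listed, 6 were called higher in SGNs than in glia (*Lrfn1* to *Lrfn5* and *Ntrk3*) and *Il1rap* lower, where 24.7% of all genes were called, with a median of log2 3.02 against 0.22 over all genes. The largest were *Lrfn2* (6.38 ± 1.09, with 0 to 0.21 normalized CPM in glia), *Lrfn1* (5.81 ± 1.10), *Il1rap* (-4.86 ± 0.41) and *Ntrk3* (4.04 ± 0.37), which encodes the NT-3 receptor TrkC. *Lrfn2* passed the filter of this fit only through SGN groups, so the filter favored a higher level there, against glia and against HCs. Against HCs, where 26.8% of all genes were called, 5 of 9 were higher in SGNs, led by *Lrfn5* (7.20 ± 1.00), *Lrfn2* (5.79 ± 1.04), *Lrrc4b* (5.76 ± 1.01) and *Ntrk3* (4.69 ± 0.36), with a median of log2 2.47 against 0.019 over all genes. At P8, where 20.9% of all genes were called, 5 of 9 were higher in SGNs than in glia and *Il1rap* lower. Between HCs and glia, 2 of 9 were called, where 24.4% of all genes were called. *Lrrc4b* (-5.21 ± 1.08) and *Il1rap* (-3.41 ± 0.59) were lower in HCs. Over SGN ages, *Il1rap* rose from P1 to P8 (log2 3.56 ± 0.97, adjusted p = 0.025), and *Lrfn5* (-1.34 ± 0.19, adjusted p = 4.7e-05) and *Lrfn3* (-1.13 ± 0.36, adjusted p = 0.020) fell from E15.5 to P30. They were 1 of 9 from P1 to P8 and 2 of 9 over the span, where 7.44% and 34.6% of all genes were called. Several of these calls were not firm. That of *Il1rap* from P1 to P8 was lost with edgeR (3.46, adjusted p = 0.075) and without P1 replicate 1 (4.20, adjusted p = 0.069), 2 (3.39, 0.082) or 3 (3.16, 0.088) or P8 replicate 3 (3.38, 0.065). That of *Lrfn3* over the span was lost without E15.5 replicate 1 (-0.99, adjusted p = 0.051) or 2 (-0.95, 0.065) or P30 replicate 2 (-1.02, 0.067) or 3 (-0.98, 0.078). Against the SGN mean, the glial comparison lost *Lrfn3* and *Lrfn4* without glial replicate 2 (1.71 and 1.99) or 3 (2.79 and 2.53), and sample quality weights ended the calls of *Lrfn1* to *Lrfn4* (adjusted p of 0.039, 0.021, 0.065 and 0.066). In that comparison *Lrfn1* was at 7.16 without glial replicate 1 and at 4.53 without replicate 2, and *Lrfn2* at 7.18 without replicate 1. At P8, *Lrfn1* (4.48, adjusted p = 0.011), *Lrfn4* (1.93, 0.051) and *Lrfn5* (1.94, under 4-fold) lost their calls without glial replicate 2, *Lrfn4* also without replicate 3 (2.47, 0.033), and *Il1rap* with edgeR (-3.11, adjusted p = 0.012). Against HCs, *Lrfn4* was lost without HC replicate 1 (2.22, adjusted p = 0.012) or 2 (2.19, 0.017), *Lrfn2* was at 6.47 and *Lrrc4b* at 5.08 without HC replicate 3, and *Lrfn5* at 6.60 without HC replicate 2. Between HCs and glia, *Lrrc4b* was at -4.53 without HC replicate 3, -4.42 without glial replicate 2 and -5.91 without glial replicate 3. Its call was lost in a fit of the 2 groups alone (-5.07, adjusted p = 0.019). In the annotation, *Lrfn1* overlaps *Samd4b* and *Lrfn4* overlaps *Pcx*, and without stated strand settings the reads of overlapping genes cannot be told apart there.

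Of 7 genes for proteins that bind these phosphatases inside the cell (liprins, and *Trio*, a guanine nucleotide exchange factor), *Ppfia2* was higher in SGNs than in HCs (log2 4.04 ± 0.70, adjusted p = 5.3e-05) and *Ppfibp2* lower (-3.59 ± 0.29, adjusted p = 1.1e-09). *Ppfia4* (3.66 ± 0.70) and *Ppfia2* (3.64 ± 0.77) were higher and *Ppfibp1* (-3.56 ± 0.34) lower in SGNs than in glia, and the same 3 genes were called at P8. *Ppfibp1* (-3.11 ± 0.80, adjusted p = 0.0057) and *Ppfia2* (-1.09 ± 0.28, adjusted p = 0.0049) fell from E15.5 to P30. Between HCs and glia, *Ppfibp2* (4.18 ± 0.62) and *Ppfia4* (3.99 ± 0.73) were higher and *Trio* (-2.10 ± 0.18) lower in HCs. Against HCs 2 of 7 were called and against glia 3 of 7, where 26.8% and 24.7% of all genes were called. At P8 3 of 7 were called, where 20.9% of all genes were. From E15.5 to P30 2 of 7 were called and between HCs and glia 3 of 7, where 34.6% and 24.4% of all genes were. The call of *Ppfia2* over the span of ages was lost without E15.5 replicate 1 (-0.80, under 2-fold), and that of *Trio* with DESeq2 (-1.94) and other settings that took it under 4-fold. Without glial replicate 3 the difference of *Ppfia2* from glia was 2.08 and that of *Ppfia4* 2.89, and without glial replicate 1 they were 4.65 and 4.96. For *Ppfia2* it was 4.41 without glial replicate 2. Between HCs and glia, *Ppfia4* was at 5.29 and *Ppfibp2* at 3.19 without glial replicate 1, and at 3.21 and 4.81 without replicate 3. *Ppfibp1* was at -3.92 over the span without P30 replicate 1. Sample quality weights ended the calls of *Ppfia4* against glia by the SGN mean (adjusted p = 0.018) and at P8 (0.029), and between HCs and glia (0.011). At P8, the call of *Ppfia2* was lost in a fit of the 2 groups alone (3.86, adjusted p = 0.018). In the annotation *Ppfia2* overlaps *Acss3* and *Ppfibp2* overlaps *Cyb5r2*, with the same limit from unstated strand settings.

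*Bdnf* and its receptor gene *Ntrk2* (TrkB) are linked to the family through *Slitrk5*, and *Ntf3* and *Ntrk3* through the nerve supply that *Slitrk6* maintains. All 4 differed between SGNs and HCs, where 26.8% of all genes were called. HC libraries held 193 ± 17.8 normalized CPM of *Bdnf*, against age means of 3.02 to 7.71 in SGNs and 2.79 ± 0.96 in glia (log2 -5.60 ± 0.27 for SGNs against HCs, adjusted p = 5e-13). *Ntf3* was low throughout, at 2.82 ± 1.69 in HCs and 0.33 on average in SGNs (-4.70 ± 0.87, adjusted p = 0.00011), and was not in the fit of SGN ages. It passed the filter of the other fit only through HCs, so the filter favored a higher level in HCs. *Ntrk3* (age means 789.8 to 1091 normalized CPM) and *Ntrk2* (386 to 591) were high in SGNs, at log2 4.69 ± 0.36 (adjusted p = 4.9e-10) and 2.42 ± 0.21 (adjusted p = 3.1e-09) above HCs. *Ntrk3* was also called against glia, and *Bdnf* (6.09 ± 0.66) and *Ntf3* (5.32 ± 1.33) were higher in HCs than in glia. By the SGN mean and at P8, 1 of 4 was called against glia, where 24.7% and 20.9% of all genes were called. Between HCs and glia 2 of 4 were called, where 24.4% of all genes were. The call of *Ntf3* against glia was lost with edgeR (5.52, adjusted p = 0.038), with DESeq2 (5.63, adjusted p = 0.028) and without HC replicate 2 (4.86, 0.015) or glial replicate 1 (4.66, 0.022) or 2 (5.08, 0.015), and it was at 6.26 without glial replicate 3. That of *Ntrk2* against HCs fell under 4-fold with library size alone (1.87). No gene of this list was called between SGN ages by limma-voom, edgeR or DESeq2, where limma-voom called 0.0596% to 34.6% of all genes. At the 4 steps between neighboring ages 1, 1, 0 and 1 of 3 had an unadjusted p under 0.05. *Ntrk2* stood at log2 0.60 ± 0.15 from E15.5 to P30 (adjusted p = 0.0047), under 2-fold, and was over that span the 1 of 3 tested with an unadjusted p under 0.05.

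**Figure D5:**
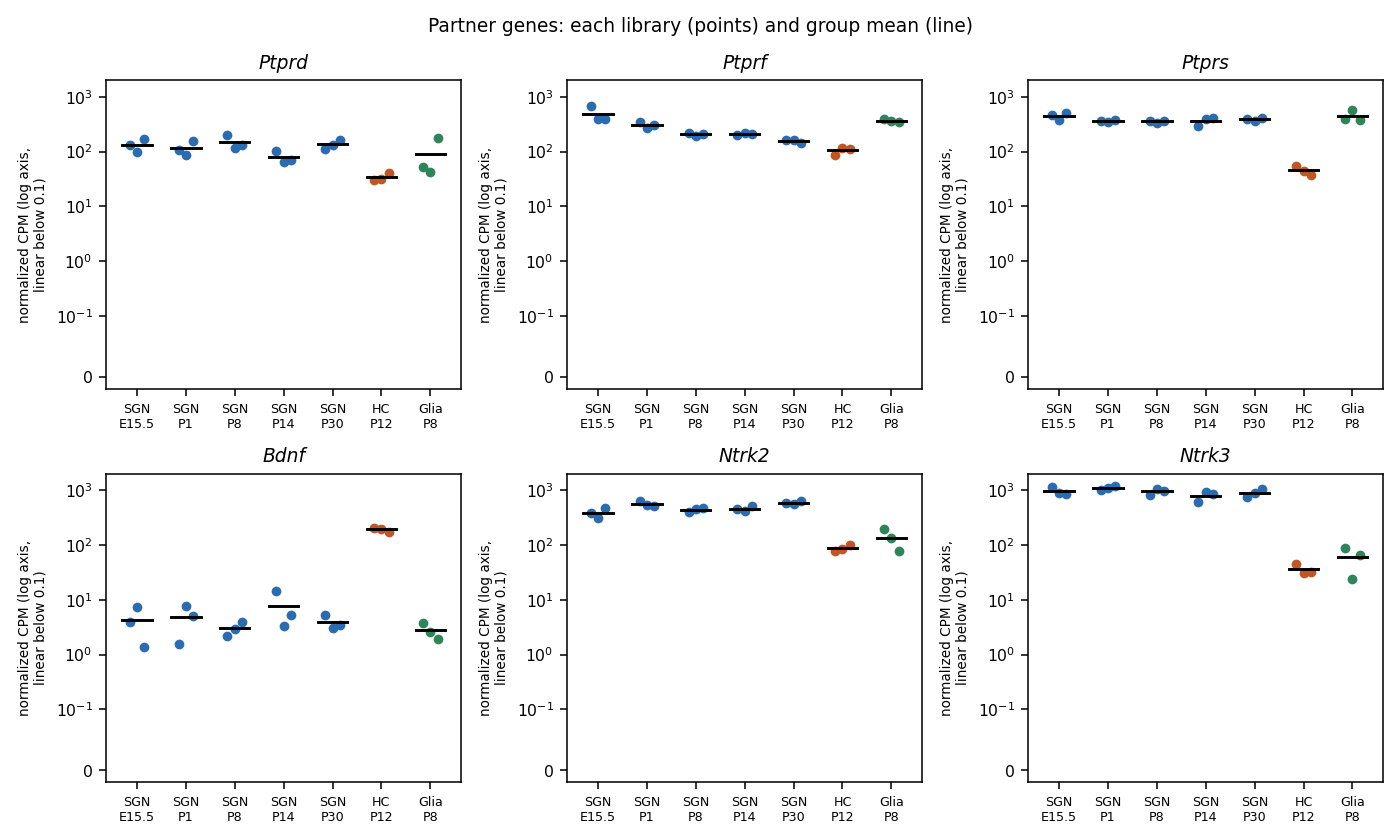
Normalized CPM (log axis that is linear below 0.1) of the 3 LAR-type phosphatase genes and of *Bdnf*, *Ntrk2* and *Ntrk3* in the 21 libraries, with SGNs in blue, HCs in orange and glia in green. Points are libraries and black lines group means (n = 3). *Bdnf* lay between 173 and 207 in HCs and at or below 14.6 in every other library, and the mean of *Ptprs* was 45.5 in HCs and at least 354 in every other group.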

How the data were processed

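RNA-Seq of 7 groups of 3 libraries was analysed from 1 table of counts. Per the labels and the study's methods, picked cells (HCs sorted) gave RNA that was amplified with Ovation RNA-Seq System V2, and the authors mapped reads to mm10 with STAR 2.4.0i and deposited counts per gene from featureCounts on GENCODE vM15, not normalized, with gene lengths. Strand, multimapping and pair settings are not given in the sources used here. The amplified reads carry no molecular identifiers.

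Symbols and positions came from GENCODE M21 (GRCm38), with a symbol for 52403 of 52550 genes. Following the study's methods, counts were TMM-normalized (edgeR 4.0.16) and fitted with limma-voom 3.58.1 under R 4.3.3, 1 mean per group, two-sided, BH-adjusted. A gene was tested if CPM exceeded 1 in each replicate of at least 1 group. Thresholds were an adjusted p of 0.05 and 2-fold for ages and of 0.01 and 4-fold for cell types. DESeq2 1.42.0 was an alternative. TPM was computed from counts and lengths, and moves with library composition. Coding sequences were aligned globally with Biopython 1.88. Scripts were tested on simulated data.

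The 6 members, partner lists and markers were chosen with earlier results of these data known. Named are all members, all 3 phosphatases, of each other list up to 4 called genes with the largest change per comparison, and the 3 genes most like each member. Overlapping genes and the values of *Ntrk2* across ages were added after they were seen. Some listed markers are not reported here and were left out of the marker sums. No sequences of SLITRK proteins were used here.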

Additional observations from a re-analysis of the deposited data

How the results depend on the processing

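The 54 member differences were recomputed under other tests, scalings, filters, weights and sets of libraries, which gave 969 values. No call turned its direction, 23 values lost a call and 6 gained one. Of 486 values that were called neither before nor after, 26 had the other sign. Between E15.5 and P1, 2 members were called with library size alone, and 0 with no filter on low counts, with sample quality weights or with the 2 ages alone (0 to 1 without single libraries). Between P1 and P8, 0 were called with edgeR, DESeq2, library size alone, no filter, quality weights, the replicate block or all 21 libraries (0 to 1 without single libraries). From E15.5 to P30, 1 was called with a CPM filter of 10, which left *Slitrk6* untested. For the SGN mean against glia, 3 were called with quality weights. DESeq2 gave *Slitrk3* no adjusted p in the cell type comparisons, and it was left out there. In no comparison of 2 groups tested did all 3 same-numbered pairs of libraries correlate over 0.1 in their deviations from the group means (r from -0.0592 to 0.0535 for E15.5 and P1 and from 0.0818 to 0.371 for P14 and P30), and 0 to 5 of 6 libraries correlated best with their own number, so the numbers were not treated as pairs. Between P8 and P30, which were not compared, r was 0.378, 0.172 and 0.146, and 6 of 6 libraries correlated best with their own number. With the replicate block, *Slitrk4* from P1 to P8 stood at log2 1.06 (adjusted p = 0.052), and *Slitrk3* from P8 to P14 at -0.71 (adjusted p = 0.048), under 2-fold. The block changed no other count of called members. Scaling by library size alone shifted the median of all genes by -0.47 from E15.5 to P30, -0.55 for SGNs against HCs and 0.49 for HCs against glia, and by -0.10 to -0.21 at the first 3 steps and -0.12 at P8 against glia. DESeq2 factors shifted it by -0.22 for SGNs against HCs and 0.15 for HCs against glia. The share of called genes that were higher then moved from 61.5% to 47.3%, 57.7% to 36.0% and 46.9% to 25.7% at the first 3 steps, from 53.2% to 30.3% over the whole span, from 39.3% to 26.1% for SGNs against HCs and from 66.4% to 77.9% for HCs against glia with library size alone. The share of all genes called ran over the alternatives from 3.00% to 11.5%, 3.01% to 11.2%, 0.185% to 1.38% and 0.00662% to 0.728% at the 4 steps, 15.8% to 40.9% over the span, 16.5% to 31.5% against HCs, 11.5% to 27.4% and 10.8% to 24.5% against glia, and 12.7% to 26.2% for HCs against glia. Of 42 group levels taken as a share of the gene's highest group mean, 7 moved by more than the spread of replicates with CPM in place of TPM. Counts of 0 to 6 limit the size of the *Slitrk1*, *Slitrk4* and *Slitrk6* differences.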
